A study of Homo sapiens with 4 samples.

Results

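Small ribosomal subunit assembly factors are the proteins that build the 40S subunit of the ribosome in the nucleolus, and 43 of their genes were followed here by symbol among the 26364 genes listed in each sample. They are components of the small subunit processome and of the later 40S precursor, and they were chosen by name and function, with earlier results of these data known. RNA was sequenced from BE(2)C cells (labelled BE2C), a human neuroblastoma cell line with amplified MYCN, in 2 groups with 2 samples each. Ctrl cells, with the genotype given as wild type, received a non-targeting siRNA, and MYCN KD cells received an siRNA against MYCN, all by lipofection for 6 h, and RNA was extracted the next day. The labels give an siRNA concentration of 80 nM and the study's methods a different one, both groups come from 1 cell line, a single siRNA was used against MYCN, and the transcript was lowered and not removed. The study calls its replicates biological, but no label ties the 2 samples of a group to separate cultures. The p-values measure only the spread that the deposited values hold between these samples, after unwanted variation had been removed from them.

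The small subunit begins as part of a long ribosomal RNA precursor made by RNA polymerase I. As the precursor emerges, the UTP-A and UTP-B complexes and the U3 small nucleolar ribonucleoprotein settle on its 5′ end and form the processome, inside which the RNA is folded, modified and cut. The processome is then taken apart, and a smaller set of factors accompanies the 40S precursor to the cytoplasm, where the last cut makes the mature 18S RNA. Genes of ribosome production are widely known as targets of MYC family transcription factors, which bind the E-box sequence CACGTG together with MAX.

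The deposited values are RPKM, read counts scaled by the length of the gene and the depth of the sample, so that levels can be compared between genes. Whole reads recovered from them, which stand for the authors' normalized counts, gave totals from 29055819 to 34142988 reads per sample. The fewest in a member were 333 reads (RIOK2, MYCN KD replicate 2, exact 95% Poisson interval from 298 to 371). The most were 7140 reads (PDCD11, Ctrl replicate 1). The interval treats normalized counts as sequenced reads and covers counting error only. MYCN itself was at 1068 and 1073 RPKM in the Ctrl samples and at 720 and 718 RPKM in the MYCN KD samples (log2 fold change -0.57, standard error 0.029, adjusted p = 0.00361, limma). Of 10 markers of adrenergic neuroblastoma, all were listed at 23.8 RPKM or more in each sample, whereas 4 blood markers summed to at most 0.0774 RPKM and 3 endothelial markers to at most 0.638 RPKM. The 5 fibroblast markers summed to between 12.6 and 14.97 RPKM in Ctrl and between 16.7 and 19.6 RPKM in MYCN KD. Among them COL1A1 and DCN were higher in MYCN KD (log2 fold changes 0.67 and 0.66, adjusted p = 0.00365 and 0.0269, limma) whereas LUM, the most abundant in Ctrl at 6.81 and 8.19 RPKM, was at 7.94 and 6.64 RPKM in MYCN KD and did not pass (-0.035, adjusted p = 0.836, limma). COL3A1 stayed between 0.432 and 0.539 RPKM and COL1A2 at most at 0.0254 RPKM, both below the filter, and the part of these markers in the results was not tested.

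MYCN knockdown lowered nearly the whole set of assembly factors. Of the 43 members, all of which were expressed above the filter of a mean RPKM of 1, 40 fell below Ctrl past an adjusted p of 0.05 (limma on log2(RPKM + 1), Benjamini-Hochberg adjustment over 11411 tested genes), against 22.8% of all tested genes called lower. None was called higher, against 25.3% of all tested genes, and 0 members were higher at an unadjusted p under 0.05 in this fit or past the adjusted threshold in limma voom on the recovered reads. The 3 members that did not pass were UTP6, FCF1 and HEATR1. In 42 members both MYCN KD values lay below both Ctrl values, as they did in 35.8% of the tested genes, and HEATR1 was the exception. No member had both values above, against 40.4% of the tested genes. The samples are bulk RNA, in which fewer expressing cells and less RNA per cell cannot be told apart. The median log2 fold change of the members was -0.71, with quartiles of -0.95 and -0.55, and that of all tested genes was 0.026. By log2 fold change, 35 members stood among the 1141 genes of the lowest 10%. Summed over the members, the level was 1487 and 1450 RPKM in Ctrl replicates 1 and 2 and 870 and 890 RPKM in MYCN KD replicates 1 and 2, or 59.9% of Ctrl. With 2 samples against 2, an exact permutation test of a single gene cannot go below a two-sided p of 0.3333.

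**Figure D1:**
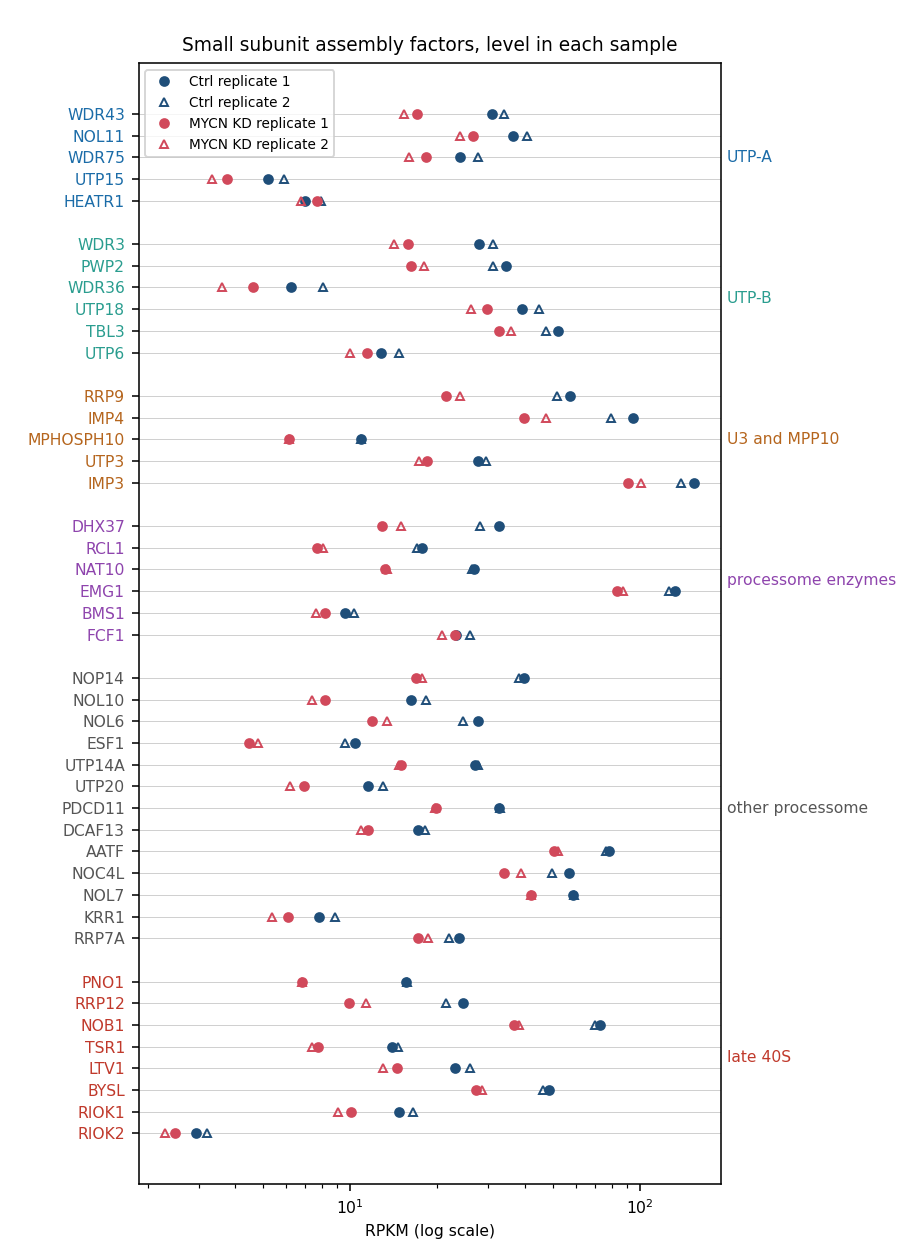
RPKM of each assembly factor in each of the 4 samples on a log axis, with genes grouped by role; blue is Ctrl and red is MYCN KD, filled circles are replicate 1 and open triangles replicate 2. The red symbols sit to the left of the blue ones in 42 of 43 genes, and only those of HEATR1 interleave.

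**Figure D2:**
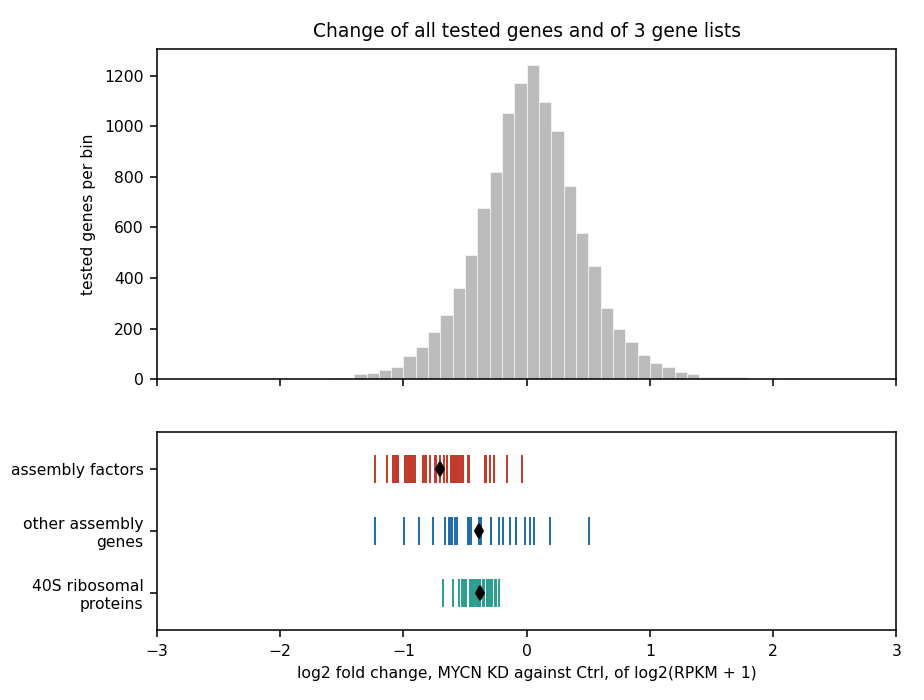
Upper panel, the number of tested genes in bins of log2 fold change 0.1 wide, with values beyond the axis counted in the outer bins; lower panel, 1 tick per gene of each list and a diamond at its median. All tested genes centre near 0 (median 0.026), whereas the assembly factors centre at -0.71, the other small subunit assembly genes at -0.39 and the 40S ribosomal proteins at -0.38.

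The promoters of the members were also searched for the MYC family E-box. A window from 250 bases before to 50 bases after the start site was held in the RefSeq table (GRCh38.p14) for 39 of the 43 members, and MPHOSPH10, NOL10, DCAF13 and RRP12 were not among them. The letters CACGTG, which read the same on both strands, stood in 18 of these 39 windows (46.2%), against 900 of 8489 windows of tested genes (10.6%) and 2030 of 27305 windows in the table (7.43%). In 13 of the 18 members the first match began within 50 bases of the start site, and IMP4 and UTP18 held 2 matches. The 18 members with a match had a median log2 fold change of -0.95 (range -1.23 to -0.47) and all 18 were called lower. The 21 members without one had a median of -0.56 (range -0.93 to -0.04), and 18 of them were called lower. Of all 43 members 40 were called lower, and of all tested genes 22.8%. Over all tested genes the medians were -0.07 with the letters and 0.039 without. A match in these windows describes the sequence alone, and MYCN binding was not analysed here.

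The promoter windows of the 2 members with the lowest and the 2 with the highest log2 fold change are shown for comparison, with CACGTG in capitals. RRP9 lies at chr3:51941855-51942154 on the minus strand, with the match beginning 5 bases before the start site, and NOP14 at chr4:2963357-2963656 on the minus strand, with the match beginning 15 bases after it. FCF1 at chr14:74712894-74713193 on the plus strand and HEATR1 at chr1:236604467-236604766 on the minus strand hold no match.
RRP9: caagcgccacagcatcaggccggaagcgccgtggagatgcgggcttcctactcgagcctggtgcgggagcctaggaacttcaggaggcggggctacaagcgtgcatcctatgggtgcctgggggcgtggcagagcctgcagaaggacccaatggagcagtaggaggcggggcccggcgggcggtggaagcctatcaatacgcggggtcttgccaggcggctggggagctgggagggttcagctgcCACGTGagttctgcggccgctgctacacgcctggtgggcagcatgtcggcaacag
NOP14: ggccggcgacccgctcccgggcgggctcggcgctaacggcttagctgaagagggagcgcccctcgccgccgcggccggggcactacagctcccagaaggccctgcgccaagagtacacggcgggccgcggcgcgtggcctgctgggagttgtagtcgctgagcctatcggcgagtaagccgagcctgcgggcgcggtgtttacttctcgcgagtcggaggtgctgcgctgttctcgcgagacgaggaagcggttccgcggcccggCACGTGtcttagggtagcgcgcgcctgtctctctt
FCF1: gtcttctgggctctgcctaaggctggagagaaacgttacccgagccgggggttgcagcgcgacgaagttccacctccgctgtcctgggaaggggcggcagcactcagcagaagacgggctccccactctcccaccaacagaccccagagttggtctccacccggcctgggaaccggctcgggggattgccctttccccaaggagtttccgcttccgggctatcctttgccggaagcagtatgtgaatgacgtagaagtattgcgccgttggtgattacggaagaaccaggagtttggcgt
HEATR1: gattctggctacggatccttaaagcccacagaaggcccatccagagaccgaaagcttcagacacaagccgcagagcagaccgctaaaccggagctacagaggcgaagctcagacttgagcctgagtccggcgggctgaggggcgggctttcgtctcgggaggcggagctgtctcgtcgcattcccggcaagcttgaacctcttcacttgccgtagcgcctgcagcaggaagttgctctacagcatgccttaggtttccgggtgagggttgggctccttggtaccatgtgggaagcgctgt

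**Figure D3:**
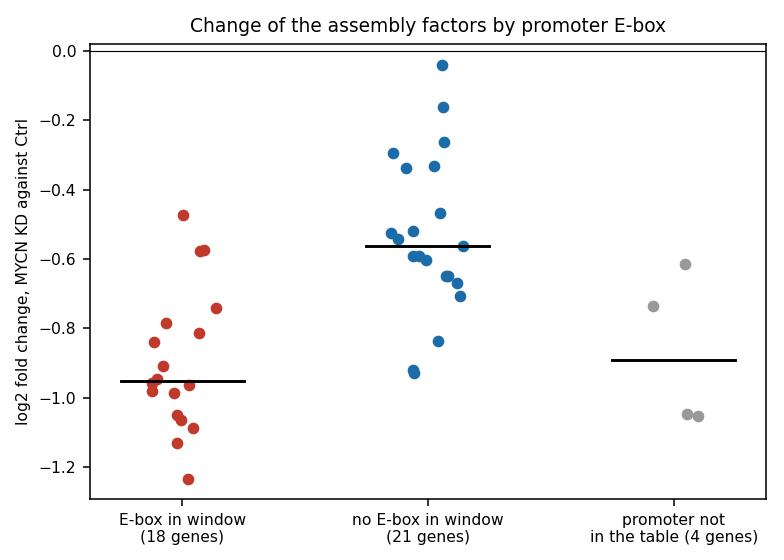
Log2 fold change of each assembly factor, 1 point per gene with a line at the median, for genes with an E-box in the 300-base promoter window, genes without one and genes whose promoter was not in the table. The medians are -0.95, -0.56 and -0.89, and the 3 genes nearest 0 (HEATR1, FCF1 and RIOK2) have no E-box in the window.

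UTP-A is the first complex to bind the nascent precursor, and its subunits are also tied to RNA polymerase I transcription. Of the 5 subunits followed, 4 fell. WDR43, a WD-repeat subunit, was at 30.8 and 34.1 RPKM in Ctrl and at 16.96 and 15.4 RPKM in MYCN KD (log2 fold change -0.96, standard error 0.080, adjusted p = 0.00588, limma). NOL11 went from 36.5 and 40.7 RPKM to 26.6 and 24.0 RPKM (log2 fold change -0.59, adjusted p = 0.0144, limma), and WDR75 from 23.9 and 27.6 RPKM to 18.3 and 15.98 RPKM (-0.56, adjusted p = 0.0261, limma). UTP15, the least abundant of the complex, went from 5.22 and 5.89 RPKM to 3.76 and 3.35 RPKM (-0.53, adjusted p = 0.0174, limma). In each of these genes the groups were apart by more than the replicates of either group.

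HEATR1, the large HEAT-repeat subunit of UTP-A encoded at chr1:236712305-236767816 (GRCh37, minus strand, 45 exons), was at 6.97 and 7.96 RPKM in Ctrl and at 7.70 and 6.77 RPKM in MYCN KD. The values of the groups interleaved, and the log2 fold change was -0.04 with a 95% interval from -0.32 to 0.24 (adjusted p = 0.754, limma). The ratio of HEATR1 to the mean level of the other 4 UTP-A genes was 0.289 and 0.294 in Ctrl, against 0.469 and 0.461 in MYCN KD, a comparison chosen after these values were seen. The MYCN KD samples thus held more HEATR1 transcript relative to these 4 genes than either Ctrl sample. UTP4, a further UTP-A subunit described below, was not part of the ratio. In the annotation 23.1% of the HEATR1 exon bases overlap exons of LGALS8 on the opposite strand, and whether reads were counted by strand is not stated. LGALS8 was at 0.808 and 1.11 RPKM in Ctrl and at 1.33 and 0.979 RPKM in MYCN KD, below HEATR1 in each sample. The direction of HEATR1 turned when the samples were rescaled to 1 common total (0.014), without Ctrl replicate 2 (0.045) and without MYCN KD replicate 2 (0.041).

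UTP-B is a complex of WD-repeat proteins with the helical-repeat protein UTP6, which holds the U3 particle on the precursor. Of its 6 genes, 5 fell. WDR3 was at 27.8 and 31.1 RPKM in Ctrl and at 15.8 and 14.2 RPKM in MYCN KD (log2 fold change -0.93, standard error 0.089, adjusted p = 0.00698, limma). PWP2 was at 34.6 and 31.2 RPKM in Ctrl and at 16.2 and 17.9 RPKM in MYCN KD (-0.91, adjusted p = 0.00654, limma). These were the largest falls in the complex, to 50.9% and 51.9% of Ctrl. Each 50-base window of the PWP2 transcript also occurs in a second annotated gene. Whether that gene is a separate locus in the build used for alignment was not checked, so the level of PWP2 is uncertain if reads were split. TBL3 went from 52.2 and 47.4 RPKM to 32.8 and 36.0 RPKM (-0.52, adjusted p = 0.0160, limma) and UTP18 from 39.3 and 44.8 RPKM to 29.7 and 26.2 RPKM (-0.57, adjusted p = 0.0222, limma). WDR36 was at 6.26 and 8.08 RPKM in Ctrl and at 4.63 and 3.62 RPKM in MYCN KD, with a log2 fold change of -0.67 near the threshold (standard error 0.17, adjusted p = 0.0453, limma). UTP6 was at 12.8 and 14.8 RPKM in Ctrl and at 11.5 and 9.99 RPKM in MYCN KD, and it did not pass (-0.33, 95% interval -0.65 to -0.016, adjusted p = 0.0789, limma), although its groups did not overlap.

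The U3 particle guides the early cuts by pairing with the precursor, and the MPP10 complex of MPHOSPH10, IMP3 and IMP4 brings the 2 RNAs together. All 5 genes of this group fell. RRP9, the WD-repeat protein specific to U3 among the box C/D particles, is encoded at chr3:51967445-51975920 (GRCh37, minus strand, 15 exons) and was at 57.5 and 51.7 RPKM in Ctrl and at 21.4 and 23.9 RPKM in MYCN KD. It was left at 41.5% of Ctrl, the lowest share among the 43 members, with a log2 fold change of -1.23 (standard error 0.087, adjusted p = 0.00471, limma). IMP4 went from 94.5 and 79.6 RPKM to 39.96 and 47.3 RPKM (-0.98, adjusted p = 0.0127, limma). MPHOSPH10, the scaffold, went from 10.9 RPKM in both Ctrl samples to 6.14 and 6.15 RPKM (-0.74, adjusted p = 0.00365, limma). IMP3 had the highest level of all members, at 154 and 139 RPKM in Ctrl and at 91.4 and 101 RPKM in MYCN KD (-0.60, adjusted p = 0.0133, limma). The 3 partners of the MPP10 complex were thus far apart in transcript level in both groups. IMP3 was at 14.2 and 12.8 times MPHOSPH10 in Ctrl and at 14.9 and 16.4 times in MYCN KD. In the annotation 31.7% of the IMP3 exon bases overlap exons of SNX33 on the opposite strand, and the part of this overlap in its level was not tested. UTP3, the human Sas10, went from 27.6 and 29.5 RPKM to 18.4 and 17.2 RPKM (-0.65, adjusted p = 0.00663, limma).

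Of the 6 enzymes and enzyme-like factors of the processome, 5 fell. DHX37, the helicase that frees U3 from the precursor, was at 32.5 and 28.0 RPKM in Ctrl and at 12.9 and 14.96 RPKM in MYCN KD (log2 fold change -1.07, standard error 0.11, adjusted p = 0.00828, limma). NAT10, which acetylates cytidines of 18S RNA, fell with a narrow replicate error from 26.7 and 26.3 RPKM to 13.2 and 13.4 RPKM, or to 50.05% of Ctrl (-0.95, standard error 0.036, adjusted p = 0.00359, limma). EMG1, which methylates a pseudouridine of 18S RNA, went from 132 and 126 RPKM to 83.3 and 87.4 RPKM (-0.59, adjusted p = 0.00548, limma). Its exons in the annotation used here overlap those of LPCAT3 on the opposite strand over 55.5% of their bases. The gene length behind its RPKM, recovered with the reads, was 1070 bases, against 5574 annotated exon bases. The overlap within the counted gene model is thus not known. LPCAT3 was at 33.5 and 33.1 RPKM in Ctrl and at 30.8 and 31.2 RPKM in MYCN KD.

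BMS1, a GTPase, and RCL1, the cyclase-like protein that it carries into the processome, fell by unequal amounts. RCL1 was at 17.7 and 17.01 RPKM in Ctrl and at 7.70 and 8.04 RPKM in MYCN KD (log2 fold change -1.05, standard error 0.047, adjusted p = 0.00359, limma). BMS1 was at 9.59 and 10.3 RPKM in Ctrl and at 8.21 and 7.65 RPKM in MYCN KD (-0.29, standard error 0.063, adjusted p = 0.0322, limma), and the 95% intervals of these 2 changes did not meet. The level of RCL1 relative to BMS1 was 1.85 and 1.65 in Ctrl, against 0.937 and 1.05 in MYCN KD, a ratio formed after the values were seen. Of the BMS1 windows of 50 bases, 11.3% also occur in other annotated genes, which include its pseudogenes. FCF1, a PIN-domain nuclease, was at 23.2 and 25.9 RPKM in Ctrl and at 23.0 and 20.7 RPKM in MYCN KD, so that both MYCN KD values lay just below the lower Ctrl value. Its log2 fold change of -0.16 (95% interval -0.41 to 0.089) did not pass (adjusted p = 0.199, limma).

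**Figure D4:**
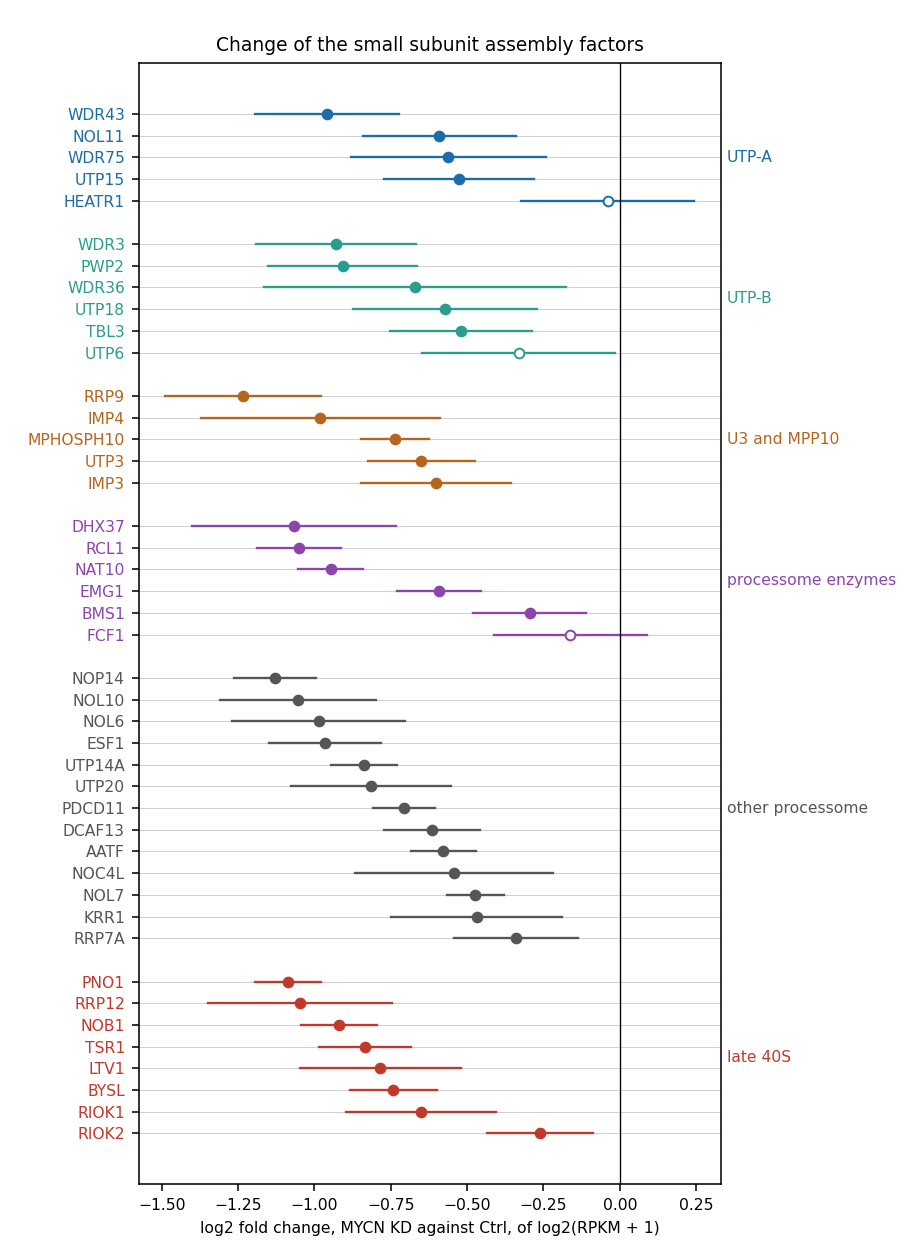
Log2 fold change between MYCN KD and Ctrl of log2(RPKM + 1) for each assembly factor, with 95% intervals from limma; filled points passed an adjusted p of 0.05 and open points did not. Of the 43 points, 40 are filled and lie below 0, and HEATR1, FCF1 and UTP6 are open.

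The other 13 processome factors, most of them structural proteins that wrap the precursor, all fell. NOP14 had the lowest log2 fold change among them, from 39.9 and 38.3 RPKM in Ctrl to 16.95 and 17.7 RPKM in MYCN KD (-1.13, standard error 0.046, adjusted p = 0.00359, limma). Its partner NOC4L fell less, from 57.2 and 49.6 RPKM to 33.8 and 38.9 RPKM (-0.54, standard error 0.11, adjusted p = 0.0289, limma). NOL10 went from 16.3 and 18.3 RPKM to 8.22 and 7.38 RPKM (-1.05, adjusted p = 0.00569, limma) and AATF, which works with it, from 78.1 and 76.1 RPKM to 50.7 and 52.0 RPKM (-0.58, adjusted p = 0.00422, limma). NOL6, the human Utp22, was left at 48.6% of Ctrl (26.1 ± 2.27 to 12.7 ± 1.09 RPKM, mean ± SD, n = 2) and ESF1 at 46.4% (9.99 ± 0.527 to 4.63 ± 0.242 RPKM, mean ± SD, n = 2). NOP14, NOL10, NOL6 and ESF1 were the members of the group left under 50% of Ctrl.

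UTP14A, which activates DHX37, fell from 27.1 and 27.6 RPKM to 14.99 and 14.7 RPKM (log2 fold change -0.84, adjusted p = 0.00359, limma), and 11.8% of its 50-base windows occur also in its retrocopy UTP14C. UTP14C was at 4.09 and 5.02 RPKM in Ctrl and at 3.88 and 3.19 RPKM in MYCN KD, a difference that did not pass (-0.29, adjusted p = 0.149, limma). UTP20, a giant HEAT-repeat protein, went from 11.6 and 13.0 RPKM to 6.93 and 6.18 RPKM, or 53.3% of Ctrl. PDCD11, the human Rrp5 that serves both subunits, went from 32.6 and 33.0 RPKM to 19.8 and 19.6 RPKM, or 60.1% of Ctrl. Both passed the threshold. DCAF13, the human Sof1, was left at 63.3% of Ctrl, the KH-domain protein KRR1 at 68.9% and NOL7 at 71.6%, each called lower. RRP7A fell least in the group, from 23.8 and 21.9 RPKM to 17.1 and 18.6 RPKM (-0.34, standard error 0.069, adjusted p = 0.0287, limma), with 14.4% of its windows shared, mostly with RRP7BP, and 33.9% of its exon bases overlapping SERHL, which was at most at 0.0254 RPKM.

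The 8 late factors accompany the 40S precursor through export and its last steps in the cytoplasm, and all 8 fell. PNO1, which shields the 3′ end of the precursor RNA, went from 15.6 and 15.7 RPKM in Ctrl to 6.83 and 6.82 RPKM in MYCN KD (log2 fold change -1.09, standard error 0.037, adjusted p = 0.00359, limma). NOB1, the nuclease that PNO1 holds and that makes the last cut, went from 73.0 and 70.3 RPKM to 36.7 and 38.1 RPKM (-0.92, standard error 0.043, adjusted p = 0.00359, limma). Both fell by more than their replicates differed in the deposited values, from which unwanted variation had been removed. The near equal values of PNO1 in the 2 MYCN KD samples rest on 393 and 418 recovered reads. RRP12, an export factor, was at 24.6 and 21.5 RPKM in Ctrl and at 9.94 and 11.3 RPKM in MYCN KD (-1.05, adjusted p = 0.00724, limma), and TSR1, a GTPase-like factor on the subunit interface, at 13.9 and 14.6 RPKM and at 7.74 and 7.38 RPKM (-0.84, adjusted p = 0.00422, limma). LTV1 and BYSL, which sit near the head of the subunit, were left at 56.3% and 59.0% of Ctrl (adjusted p = 0.00925 and 0.00436, limma), and 30.3% of the 50-base windows of LTV1 occur in other annotated genes.

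The 2 RIO kinases of the late steps differed in level and in fall. RIOK1 was at 14.8 and 16.4 RPKM in Ctrl and at 10.1 and 9.09 RPKM in MYCN KD (log2 fold change -0.65, adjusted p = 0.0116, limma). RIOK2 had the lowest level of the 43 members, at 2.95 and 3.20 RPKM in Ctrl and at 2.49 and 2.30 RPKM in MYCN KD (-0.26, standard error 0.059, adjusted p = 0.0361, limma), a change that is understated on the log2(RPKM + 1) scale. It was left at 77.9% of Ctrl. The ratio of RIOK1 to RIOK2 was 5.01 and 5.14 in Ctrl, against 4.05 and 3.96 in MYCN KD, again formed after the values were seen.

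By role, the median log2 fold change was -0.56 in UTP-A, -0.62 in UTP-B, -0.74 in the U3 and MPP10 group, -0.77 in the enzymes, -0.71 in the other processome factors and -0.81 in the late factors, and differences between these groups were not tested. Of the 40 calls, those of BMS1, KRR1, RIOK2, RRP7A and WDR36 were lost under at least 1 of 13 alternative settings, and the other 35 were kept. Across the 43 members, 10 were left below 50% of Ctrl, 26 between 50% and 70%, and 7 at 70% or above. The order of the members by level was much alike in both groups, with a Spearman rho of 0.949 between the Ctrl and MYCN KD means over the 43 genes. The log2 fold change had a rho of -0.19 with the mean Ctrl level, 0.20 with the length of the canonical transcript and -0.27 with its GC content. These are descriptions across genes that share the same 4 libraries. The members lie on 19 chromosomes, 12 overlap exons of a listed gene on the opposite strand and 0 of one on the same strand, and 10 share 5% or more of their 50-base windows with other genes.

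A list of 29 further small subunit assembly genes holds genes of the same steps that are not among the 43. Of the 27 that were tested, 18 were lower and 2 were higher, with a median log2 fold change of -0.39. The 3 lowest were DIMT1, the dimethylase of 18S RNA, from 32.7 and 35.3 RPKM to 14.4 and 13.4 RPKM (-1.23, adjusted p = 0.00365, limma), DDX10 (-0.99, adjusted p = 0.00425) and DDX47 (-0.87, adjusted p = 0.00359), both helicases. The 3 highest were RIOK3, the third RIO kinase, from 5.36 and 6.32 RPKM to 9.38 and 7.998 RPKM (0.50, adjusted p = 0.0381, limma), NOP9 from 14.07 and 13.96 RPKM to 16.02 and 16.16 RPKM (0.19, adjusted p = 0.0260, limma) and the casein kinase CSNK1D (0.056, adjusted p = 0.392, limma), which did not pass. RIOK3 was thus higher where RIOK1 and RIOK2 were lower. UTP4, listed as CIRH1A another subunit of UTP-A, was at 81.0 and 82.4 RPKM in Ctrl and at 53.3 and 52.5 RPKM in MYCN KD (-0.62, adjusted p = 0.00374, limma), and this gene was named after its values were seen. Of the 30 tested 40S ribosomal proteins, the products that these factors assemble, 25 were lower and 0 higher (0 at an unadjusted p under 0.05), and both MYCN KD values lay below both Ctrl values in all 30. Their median was -0.38, within a range from -0.68 to -0.23, and whether it differs from that of the assembly factors was not tested.

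The replicates of a group differed in a patterned way. In 23 members Ctrl replicate 2 was above replicate 1 and MYCN KD replicate 2 below replicate 1, and in 18 the reverse held. In 2 (MPHOSPH10 and NOL7, both with near equal replicates) the signs were the same. Of 11409 tested genes, 6443 showed the first pattern, 4892 the reverse and 73 the same sign. The pattern was thus not particular to the members. Among the members the differences ran from -0.24 to 0.32 on the log2 scale in Ctrl. Members with Ctrl replicate 2 above replicate 1 had a median GC content of 41.5% in the canonical transcript (25 genes), and those with it below had 56.2% (18 genes), with a rho of -0.72 between this difference and GC content. The first 25 genes had a median log2 fold change of -0.65 with 22 called lower, and the other 18 one of -0.93 with 18 called lower. The fit with all samples treats the replicate differences of the 2 groups as separate residuals. Because they nearly mirrored each other, its p-values may be too small. The deposited values had unwanted variation removed before, and the part of that step in the replicate error and in the calls was not tested.

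**Figure D5:**
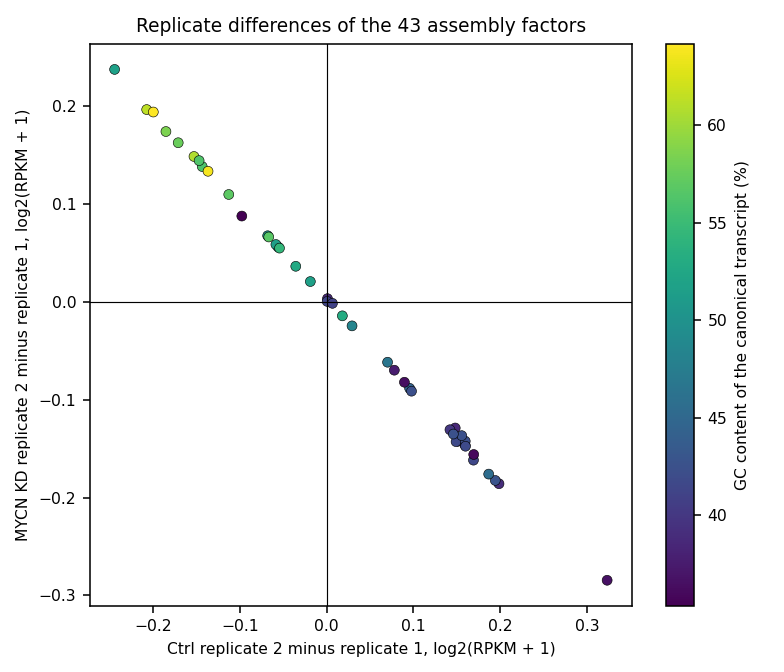
Difference between replicates 2 and 1 in MYCN KD against the same difference in Ctrl, both on log2(RPKM + 1), for the 43 assembly factors, coloured by GC content of the canonical transcript. The points follow a falling line through 0, and those with high GC content lie mostly at the upper left.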

How the data were processed

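Per the labels and the study's methods, the authors aligned reads to hg19 (HISAT2 2.1.0), counted them over RefSeq genes (featureCounts), applied DESeq2 and RUVSeq, the latter to remove unwanted variation, and deposited RPKM values from the normalized counts in 1 file per sample. The RUVSeq variant, its factors and the strand setting are not given in the sources used here. Unnormalized counts were not used here, and a change that RUVSeq shrank or enlarged cannot be recovered.

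Reads behind the RPKM values were recovered from the steps of 2202 snoRNA and miRNA genes of known length, of which 93.6% to 94.1% came out whole within 0.01 reads, and then for 19902 of 19908 genes above 0. The totals were 34142988 and 31976939 (Ctrl) and 29055819 and 30941778 (MYCN KD). A gene whose reads share a common divisor can be given too few reads this way, which bears on the read counts and on voom alone. The recovered reads lie behind normalized values and need not equal the sequenced reads, which bears on both as well.

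All 4 samples entered limma 3.58.1 in R 4.3.3 (lmFit, eBayes with a trend) on log2(RPKM + 1), unblocked, over the 11411 genes whose mean RPKM reached 1, and p-values were adjusted by Benjamini-Hochberg. Changes of low genes are understated on this scale. The fit and the recovery were tested on simulated data. Alternatives were a pseudocount of 0.1, no filter or a mean RPKM of at least 5, the replicate block, 2 scalings, a trend-free eBayes and each sample left out. Chosen after seeing the data were a crossed block and voom on the recovered reads (limma). The members and lists were chosen with earlier results of these data known. All 43 members were named, and of the further assembly genes the 3 with the lowest and the 3 with the highest change. Exons, GC content and shared 50-base windows came from GENCODE release 44 lifted to GRCh37, and promoters from RefSeq (GRCh38.p14). The GENCODE models can differ from the RefSeq models that were counted. For KRR1 the length recovered with the reads was 3357 bases and the canonical transcript 10104 bases. Whether genes that share windows are separate loci in hg19 was not checked. Tables were handled with pandas 2.3.3 and numpy 2.4.6 in Python 3.11.15, intervals with scipy 1.17.1 and plots with matplotlib 3.10.9.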

Additional observations from a re-analysis of the deposited data

How the results depend on the processing

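The count of members lower in MYCN KD was 40. It lay from 36 (samples rescaled to 1 common total) to 41 (quantile normalization) over the alternatives other than the crossed replicate block. The crossed block gave 43, but it was chosen after the mirrored replicate differences were seen. With it 5262 of the 11411 tested genes were called lower and 5910 higher, so its count is no measure of robustness. In each of the 13 alternatives 0 members were higher. Of the 40 members called lower, 35 kept the call under every alternative that tested them, and BMS1, KRR1, RIOK2, RRP7A and WDR36 lost it under at least one. RIOK2 lost it without any one of the 4 samples, BMS1 without Ctrl replicate 2 or either MYCN KD replicate, and RRP7A without replicate 1 of either group. With rescaling BMS1, KRR1, RIOK2 and WDR36 lost it, and with no filter on low values RIOK2 and WDR36. HEATR1 changed sign when samples were rescaled to 1 common total (0.0139, adjusted p = 0.926, limma), without Ctrl replicate 2 (0.0448) and without MYCN KD replicate 2 (0.0411), and lay from -0.124 to 0.0448 with a sample left out. UTP6 passed with quantile normalization, without Ctrl replicate 1 and without MYCN KD replicate 1. Where an arm was left with 1 sample, that sample was assumed to vary like the other arm. These fits and the replicate block leave fewer residual degrees of freedom than the 2 of the fit with all samples. More of the spread then comes from other genes. The adjusted p of RRP9 was 0.00471 with all samples and 7.77e-15 with the replicate block (limma). A call kept in these settings is little measure of the gene's own replicates. The 2 residual degrees of freedom with all samples also nearly repeat each other, because the replicate differences of the groups mirrored.

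The median log2 fold change of the members was -0.71, and it moved by more than the replicate spread with a pseudocount of 0.1 (-0.76), a mean RPKM of at least 5 (-0.74), rescaling to 1 common total (-0.65), limma voom on the recovered reads (-0.76) and, narrowly, without Ctrl replicate 1 (-0.72), and lay from -0.72 to -0.70 with a sample left out. Rescaling moved the median of all tested genes from 0.026 to 0.078. MYCN stayed lower under each alternative, at -0.38 with quantile normalization. Of all tested genes 2599 were lower and 2890 higher, and 2106 and 1868 where the mean RPKM reached 5, when 7859 genes were tested. Rescaling gave 2122 lower and 3279 higher.

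The labels number the samples alike in both groups, but same-numbered samples did not deviate together (Pearson correlation of the replicate differences -0.985 across 11409 genes and -0.9996 across the 43 members, genes not being independent). With the replicate block 37 members and 1851 of all tested genes were lower and 2077 higher, and BMS1, RIOK2 and RRP7A lost their calls. A crossed replicate block was tried after the data were seen, and under it 43 members were lower, and 5262 of all tested genes were lower and 5910 higher. The cause of these changes was not tested. With 333 to 7140 recovered reads per member and sample, relative counting error is largest for the members with the fewest reads, such as RIOK2.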
